A study of Homo sapiens with 12 samples.

Results

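The neurotrophin and GDNF receptors and ligands followed here are 8 genes: the ligand BDNF, its receptor NTRK2 (TrkB), the neurotrophin-3 receptor NTRK3 (TrkC), the pan-neurotrophin receptor NGFR, the GDNF family receptor tyrosine kinase RET, and its ligand-binding co-receptors GFRA1, GFRA2 and GFRA3. They were chosen by name out of 55765 gene symbols in the count files, and all 8 passed the filter on low counts in each comparison. The cells were SH-SY5Y, a human neuroblastoma line that the labels trace to the bone marrow-derived line SK-N-SH. All 12 cultures were differentiated for 7 days with all-trans retinoic acid (ATRA, 10 μM), the agent that drives these neuroblasts towards a neuron-like state. In the co-treatment protocol, 3 cultures received hydrogen peroxide (H2O2) throughout the ATRA period and 3 control cultures received ATRA without H2O2. In the pre-treatment protocol, 3 cultures received H2O2 during the 72 h that preceded ATRA, with 3 control cultures that were again given no H2O2. The labels call the controls untreated, and the H2O2 concentration is 10 mM in the deposited description but 10 μM in the study's methods. Cells without ATRA were not analysed here, so the values describe the response to H2O2 and not that to ATRA. The material is 1 tumour-derived line, and nothing states that the 3 cultures of a group came from separate passages. The p-values thus set group differences against the spread between these cultures, which may be technical.

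Neurotrophins are secreted growth factors that keep neurons alive and shape their branching. BDNF acts through NTRK2 and neurotrophin-3 through NTRK3, and NGFR, a member of the tumour necrosis factor receptor family without kinase activity, binds both ligands and their uncleaved precursors. GDNF family ligands first bind a membrane-anchored GFRA protein, and the complex then activates RET, which is best known in the sympathetic and enteric lineages from which neuroblastoma and the enteric nervous system derive. Both receptor systems signal through docking proteins to the ERK and AKT kinases, and ERK induces its own inhibitors of the Sprouty, SPRED and DUSP families. Retinoic acid is known to raise NTRK2 and RET in SH-SY5Y cells, after which the cells can respond to BDNF.

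Each library held between 27576276 and 98287391 reads assigned to genes. The control replicates 1 and 2 of the pre-treatment protocol stood apart from the other 10 libraries, with 0.80 and 0.83 reads outside annotated genes per gene read against 0.200 to 0.462, and with 1.59% and 2.88% of gene reads on small RNA genes against 13.3% to 17.6% in the other pre-treatment libraries. Control replicate 3 thus differed from the rest of its group, and the study's clustering left it out. Pre-treatment tests are given over all 6 libraries and over the 5 libraries without that control. Of 10 noradrenergic neuroblastoma markers, 9 were well expressed, GATA2 for example at 422 to 1030 reads per 1000000 gene reads (CPM, with library totals scaled by TMM factors), while TH stayed between 0.0104 and 0.263 CPM. The 10 noradrenergic markers summed to 3269 to 4132 CPM in co-treatment controls and 2354 to 3112 CPM in co-treated cells. In pre-treatment they summed to 2679 to 4198 CPM in controls and 1854 to 2539 CPM in treated cells. The 5 neuronal markers TUBB3, ENO2, MAP2, MAPT and SV2A summed to 1091 to 1583 CPM. By group these sums were 1547 to 1565, 1165 to 1508, 1302 to 1583 and 1091 to 1287 CPM, in the same order. Both sums were lower in treated cells without overlap in each protocol, and their part in the RET values was not tested. In bulk libraries, fewer cells of a type and less RNA per cell cannot be told apart.

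The 8 genes covered a wide range of levels. Compared per length of merged exons (RPKM), RET was the most abundant, with 334 ± 98.1 (SD, n = 3) in co-treatment controls, 272 ± 25.8 in co-treated cells, 423 ± 90.0 in pre-treatment controls and 201 ± 79.7 in pre-treated cells. These levels placed RET at rank 33, 42, 16 and 57 among 17997 coding genes. NTRK2 followed at 12.9 ± 1.63 RPKM in co-treatment controls and 16.5 ± 4.30 in pre-treatment controls.

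NGFR lay at 2.00 ± 0.885 RPKM in co-treatment controls and 4.54 ± 2.41 in pre-treatment controls. It lay below NTRK2 in every library, and the ranges of these 2 genes overlapped only in pre-treated cells (NGFR 3.57 to 8.84 RPKM, NTRK2 8.38 to 14.6 RPKM). GFRA2 (1.72 ± 0.207 RPKM in co-treatment controls) overlapped NGFR in that group, since NGFR ranged there from 1.12 to 2.89 RPKM, and it lay below NGFR in the other 3 groups. GFRA3 (1.39 ± 0.107 RPKM in co-treatment controls) was below GFRA2 in both co-treatment groups and overlapped it in both pre-treatment groups. GFRA1 and GFRA3 were distinguishable beyond their spread in co-treatment controls only, where GFRA1 reached 0.534 ± 0.171 RPKM. BDNF had 0.151 ± 0.0553 RPKM in co-treatment controls and NTRK3 0.0125 ± 0.00147, the lowest of the 8, and the ranges of these 2 genes did not overlap in any group. The order depends on the length used: NTRK2 has a merged exon length of 33162 bases but a canonical transcript of 8666 bases, over which its level was 49.3 ± 6.25 RPKM in co-treatment controls. RET reads thus dominated the family, and the NTRK3 values rest on 13 to 198 reads per library.

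**Figure D1:**
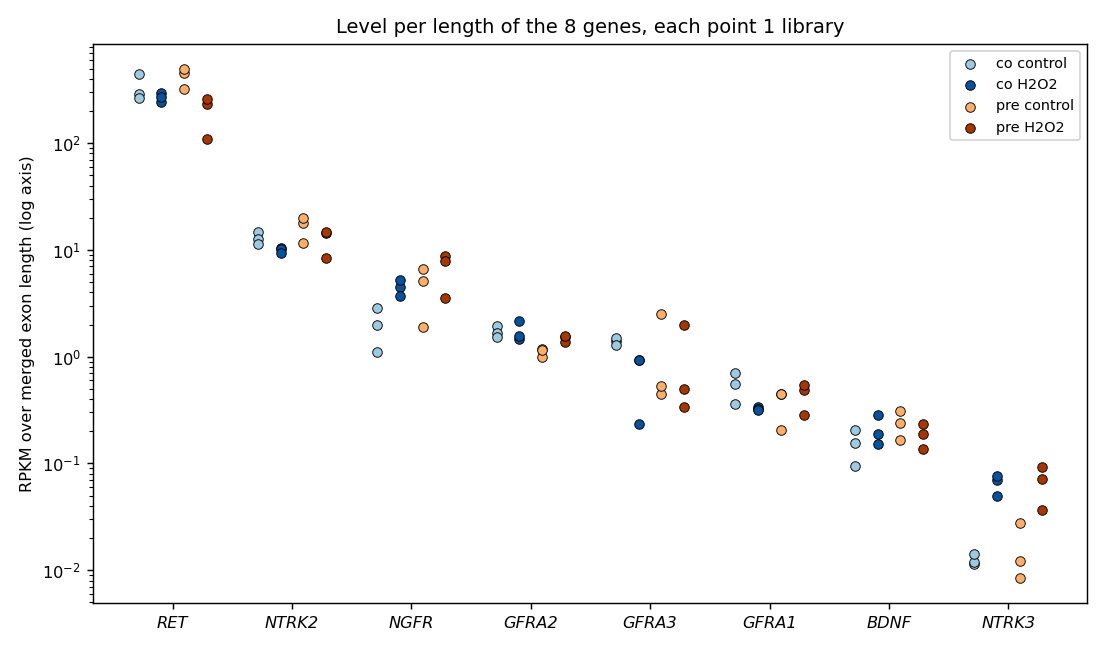
Level of each gene per length of merged exons (RPKM, log axis) in the 12 libraries, 1 point per library, coloured by group. RET lies at 110.3 RPKM or above in every library and NTRK3 at 0.0926 RPKM or below.

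BDNF, the only ligand among the 8 genes, was expressed at a low level, and its differences after H2O2 did not pass the test. Its level was 1.20, 0.725 and 1.58 CPM in the co-treatment controls and 1.46, 2.19 and 1.17 CPM in the co-treated cells. In the pre-treatment protocol it was 2.40, 1.86 and 1.28 CPM in controls and 1.46, 1.79 and 1.05 CPM in treated cells. The groups overlapped in both protocols. The log2FC (treated minus control, edgeR quasi-likelihood test with Benjamini-Hochberg adjustment) was 0.48 ± 0.37 (SE, FDR = 0.835) in co-treatment, -0.33 ± 0.35 (FDR = 0.741) in pre-treatment over 6 libraries and -0.50 ± 0.30 (FDR = 0.246) over 5. The 95% interval ran from -0.24 to 1.19 in co-treatment and from -1.02 to 0.36 in pre-treatment, so a change of up to about that size was not detectable at 34 to 141 reads per library. BDNF lies on chromosome 11 (hg19 chr11:27676440-27743605, minus strand) and shares 43339 bases with the antisense transcript BDNF-AS on the plus strand, which had 37 to 154 reads per library. The strand setting of the counting is not given in the sources used here, so reads from the shared bases cannot be assigned with certainty. BDNF-AS had a log2FC of 0.16 ± 0.28 in co-treatment and -0.25 ± 0.30 in pre-treatment over 6 libraries (-0.31 ± 0.27 over 5), without a call.

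Of the other ligands of the family, NRTN and PSPN had more reads than BDNF and NTF3, NTF4 and GDNF had almost none. GDNF, the ligand that signals through GFRA1 and RET, had at most 1 read summed over a group, neurotrophin-3 (NTF3) at most 13 and NTF4 at most 6, and these 3 genes did not pass the filter. Neurturin (NRTN, the GFRA2 ligand) was at 6.21 ± 1.23 CPM in co-treatment controls and 4.22 ± 0.200 CPM in co-treated cells, persephin (PSPN, the GFRA4 ligand) at 9.87 ± 0.859 and 8.58 ± 0.742 CPM, and artemin (ARTN, the GFRA3 ligand) at 0.811 ± 0.108 and 0.885 ± 0.0452 CPM. None of these was called in either protocol. GDF15, a stress-induced distant relative that signals through GFRAL and RET, rose in co-treatment from 13.4, 13.0 and 10.3 CPM to 26.4, 17.9 and 28.9 CPM (log2FC 0.99 ± 0.19, FDR = 0.0366). The call was lost without control replicate 2 or 3 (FDR = 0.124 and 0.0963) or treated replicate 1 or 3 (FDR = 0.128 and 0.306), and with limma-voom, library size only and one fit over both protocols (FDR = 0.0612, 0.0909 and 0.414). In pre-treatment its log2FC was -0.29 ± 0.28 (FDR = 0.718) over 6 libraries and -0.06 ± 0.26 (FDR = 0.884) over 5.

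NTRK3, the TrkC receptor, showed the largest differences of the 8 genes. In the co-treatment protocol it was at 0.306, 0.320 and 0.380 CPM in the controls and at 1.31, 1.86 and 2.06 CPM in the treated cells. In the pre-treatment protocol it was at 0.744, 0.329 and 0.229 CPM in the controls and at 1.91, 0.984 and 2.48 CPM in the treated cells. Each treated library lay above each control library of its protocol. In co-treatment NTRK3 was up-regulated 5.26-fold (log2FC 2.39 ± 0.35, 95% interval 1.70 to 3.09, FDR = 0.0093). It was the only 1 of the 8 genes called there (FDR below 0.05 with absolute log2FC above 0.6), where 0.598% of all 22089 tested genes were called and 0.335% were called higher. The call was lost when control replicate 2 or treated replicate 2 was left out (FDR = 0.0564 in both cases) and when treated replicate 3 was (FDR = 0.103), with log2FC values of 2.26 to 2.36, and also when both protocols shared 1 fit (FDR = 0.168).

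In pre-treatment the NTRK3 log2FC was 2.08 ± 0.54 over 6 libraries, where no member passed the threshold (FDR below 0.05 with absolute log2FC above 1), with FDR = 0.32 for NTRK3 and 0.0242% of 24743 genes called. Over the 5 libraries NTRK3 was called, with a log2FC of 1.79 ± 0.50 (FDR = 0.0316), as were 11.2% of 26350 genes (2.98% higher and 8.23% lower). On the 6 libraries the exact test of edgeR gave FDR = 0.047 and DESeq2 FDR = 0.015, past the threshold in both. The call over 5 libraries was lost with limma-voom and with library size only. It was also lost without control replicate 2 (log2FC 1.34), treated replicate 1 (1.74, FDR = 0.0761) or treated replicate 3 (1.45, FDR = 0.0582). NTRK3 is on chromosome 15 (hg19 chr15:88402982-88800022, minus strand). A processed pseudogene on the same strand, MED28P6, had at most 4 reads in any library, and the antisense transcript NTRK3-AS1 at most 1, against 13 to 198 for NTRK3.

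NTRK2, the BDNF receptor, was lower after H2O2 by a small amount that did not pass the test. It was at 483, 423 and 375 CPM in co-treatment controls and at 347, 335 and 312 CPM in co-treated cells. The groups did not overlap in these scaled values but did in CPM without TMM factors, where control replicate 3 was at 345 and treated replicate 1 at 354. In pre-treatment it was at 595, 662 and 388 CPM in controls and at 479.6, 484 and 278 CPM in treated cells, and control replicate 3 lay within the treated range. The log2FC was -0.36 ± 0.13 (FDR = 0.426) in co-treatment, -0.37 ± 0.28 (FDR = 0.646) in pre-treatment over 6 libraries and -0.53 ± 0.22 (FDR = 0.113) over 5. Of the 8 genes, 5 had groups without overlap in co-treatment (NTRK3 and NGFR higher, NTRK2, GFRA1 and GFRA3 lower), where 14.0% of tested genes did (6.58% higher and 7.37% lower). Without TMM factors 3 of the 8 did in co-treatment (NGFR, NTRK3 and GFRA3), where 14.3% of genes did. In pre-treatment over 6 libraries 3 of the 8 did (NTRK3 and GFRA2 higher, RET lower), where 16.4% of tested genes did (7.97% higher and 8.47% lower).

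**Figure D2:**
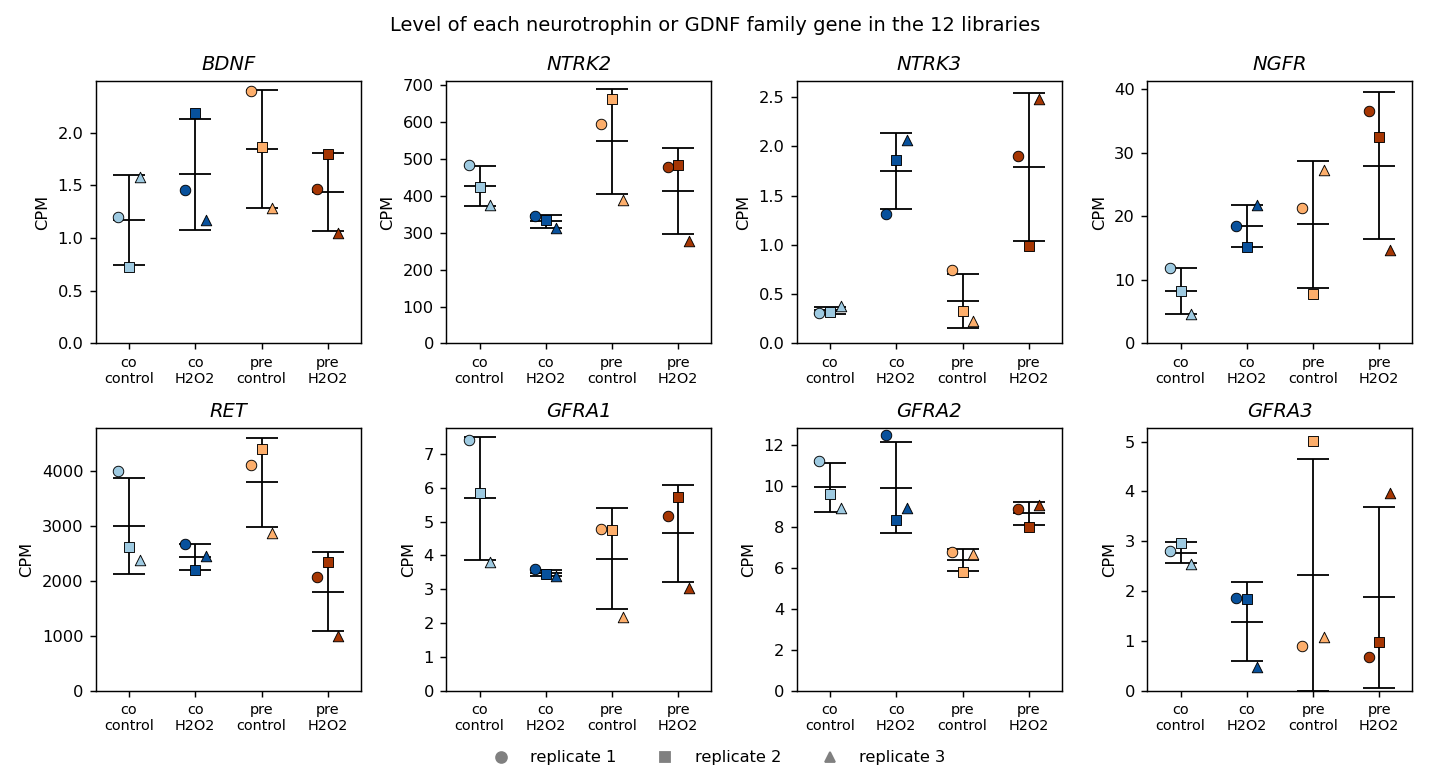
Level of each of the 8 genes in CPM (vertical axes from 0) by group, with 1 point per library and the mean ± SD (n = 3) as bars. The treated libraries lie above the controls for NTRK3 in both protocols and below them for RET in pre-treatment, and GFRA3 spreads from 0.889 to 5.02 CPM within the pre-treatment controls.

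Ratios between genes within a library need no scaling between libraries, and they were chosen after the data had been seen. NTRK3 gave 0.801 ± 0.194 reads per 1000 NTRK2 reads in co-treatment controls and 5.32 ± 1.42 in co-treated cells. The ratio was 0.779 ± 0.411 in pre-treatment controls and 4.98 ± 3.55 in pre-treated cells. The groups did not overlap in either protocol (exact permutation test, two-sided, p = 0.1 in each, the smallest p that 3 against 3 libraries allow).

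NGFR was 2.22-fold higher after co-treatment, a difference that was called by some tests and not by others. Its level was 11.95, 8.26 and 4.62 CPM in the controls and 18.5, 15.2 and 21.7 CPM in the treated cells, without overlap. The log2FC was 1.15 ± 0.28 with FDR = 0.115, and the gene was not called. The exact test of edgeR, which the study used, gave FDR = 0.00849 and DESeq2 gave FDR = 0.00128 at a log2FC of 1.16, past the threshold in both. NGFR was also called without control replicate 1 (log2FC 1.51, FDR = 0.00311). In pre-treatment NGFR was at 21.3, 7.78 and 27.3 CPM in controls and at 36.6, 32.5 and 14.8 CPM in treated cells. The highest control lay above the lowest treated library, and the log2FC was 0.59 ± 0.48 (FDR = 0.666) over 6 libraries and 1.01 ± 0.47 (FDR = 0.141) over 5. It passed the threshold over 5 libraries when control replicate 1 (log2FC 1.94, FDR = 0.0417) or treated replicate 3 (log2FC 1.28, FDR = 0.0407) was left out as well.

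Within libraries, NGFR gave 18.9 ± 6.24 reads per 1000 NTRK2 reads in co-treatment controls and 56.1 ± 12.4 in co-treated cells, again without overlap (exact permutation p = 0.1). In pre-treatment the ratio was 39.3 ± 29.4 and 65.6 ± 11.7 (exact permutation p = 0.3). Among 5 intracellular partners of NGFR (MAGED1, NGFRAP1, TRAF6, RIPK2 and ARHGDIA) none was called in co-treatment or in pre-treatment over 6 libraries, with median log2FC values of -0.27 and -0.26 against -9.5e-04 and -0.00662 over all tested genes. ARHGDIA was called lower over the 5 pre-treatment libraries (log2FC -1.28 ± 0.20, FDR = 0.0044) and fell below the fold threshold without control replicate 2 (-0.92).

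NGFR and GFRA3 are also expressed by Schwann and neural crest glia, so the levels of 8 glial markers are given beside them. The markers summed to 5.88 to 7.04 CPM in co-treatment controls, 6.01 to 6.67 CPM in co-treated cells, 6.004 to 6.36 CPM in pre-treatment controls and 5.98 to 8.08 CPM in pre-treated cells. FOXD3 had no reads, CDH19 and PMP2 at most 1 read in a library, and SOX10 0.0585 to 0.898 CPM, and none of the 5 markers tested was called. Of 8 mesenchymal state markers, 6 were tested and VIM was called higher in co-treatment (log2FC 1.16 ± 0.21, FDR = 0.0272) and in pre-treatment (log2FC 2.42 ± 0.24, FDR = 0.0442 over 6 libraries and 2.66 ± 0.20, FDR = 7.18e-04 over 5), in the same direction as NTRK3 and NGFR. YAP1 was at 0.0545 to 0.0876 CPM in pre-treatment controls and 0.206 to 0.964 CPM in pre-treated cells, and was called over 5 libraries (log2FC 3.11 ± 0.81, FDR = 0.0251) but not over 6 (3.12 ± 0.71, FDR = 0.32). COL1A2 was at 0.0152 to 0.0219 and 0.0735 to 0.251 CPM in these groups (log2FC 3.10 ± 1.01, FDR = 0.0534 over 5 libraries). PRRX1 was at most 0.0752 CPM in any library. Other markers of this list were lower in 1 or both protocols. TWIST1 was at 172.5 to 185 CPM in co-treatment controls and 118 to 136 CPM in co-treated cells. Mean COL1A1 went from 0.777 to 0.254 CPM in co-treatment and from 0.837 to 0.535 CPM in pre-treatment. Mean FN1 went from 152 to 118 CPM in pre-treatment but from 109 to 155 CPM in co-treatment. There, mean SNAI2 went from 20.2 to 23.2 CPM and mean YAP1 from 0.358 to 0.543 CPM. Of the 6 tested, 4 had a positive and 2 a negative log2FC in co-treatment. In pre-treatment over 6 libraries 2 were positive and 4 negative. The summed mesenchymal markers ranged from 264 to 385 CPM in co-treatment controls, 311 to 330 in co-treated cells, 320 to 429 in pre-treatment controls and 323 to 332 in pre-treated cells. The part of these cell states in the NTRK3 and NGFR values was not tested.

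RET was lower after pre-treatment, and this difference passed the test only without control replicate 3. In the pre-treatment controls RET was at 4101, 4402 and 2878 CPM, and in the treated cells at 2073, 2340 and 989.6 CPM, without overlap. In co-treatment it was at 4003, 2616 and 2370 CPM in controls and at 2662, 2199 and 2446 CPM in treated cells, where control replicate 1 stood above the other 5 libraries. The pre-treatment log2FC was -1.04 ± 0.35 (FDR = 0.336) over 6 libraries and -1.17 ± 0.31 (FDR = 0.0254) over 5, where RET was down-regulated 2.25-fold. The call was lost when control replicate 1 (log2FC -1.20, FDR = 0.0777), control replicate 2 (log2FC -1.11, FDR = 0.125) or treated replicate 3 (log2FC -0.91, below the fold threshold) was also left out. The co-treatment log2FC was -0.30 ± 0.19 (FDR = 0.789). The 5 pre-treatment libraries carry the large gap between control replicates 1 and 2 and the rest in reads outside genes and on small RNAs, and the part of that gap in the RET value was not tested.

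Ratios to RET within each library also shifted in pre-treatment with all 3 controls. They use the same RET reads, so they are not a separate result, and a ratio alone cannot assign the shift to RET. NTRK2 gave 145, 150 and 135 reads per 1000 RET reads in the pre-treatment controls and 231, 207 and 281 in the treated cells (exact permutation p = 0.1, the smallest possible). Control replicate 3 lay at the lower end of the control values and apart from the treated ones. In co-treatment the ratio was 121, 162 and 158 in controls and 130, 152 and 128 in treated cells, with overlap (exact permutation p = 0.7). The level of RET per summed level of GFRA1, GFRA2 and GFRA3, both per length, was 171 ± 48.7 in pre-treatment controls and 78.0 ± 43.1 in treated cells, without overlap, and 90.6 ± 17.1 and 102 ± 23.9 in co-treatment, with overlap (exact permutation p = 0.1 and 0.5). Per length, RET RNA exceeded the summed co-receptor RNA in every library.

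The RefSeq promoter windows of NTRK3 and RET are shown because these were the 2 genes called in a comparison. Each covers 250 bases before and 50 bases after the first annotated start in GRCh38.p14, with capitals marking GC boxes (GGGCGG or its complement CCGCCC), the sites that Sp-family factors bind. NTRK3 is read from chr15:88256690-88256989 on the minus strand and RET from chr10:43076819-43077118 on the plus strand.
NTRK3: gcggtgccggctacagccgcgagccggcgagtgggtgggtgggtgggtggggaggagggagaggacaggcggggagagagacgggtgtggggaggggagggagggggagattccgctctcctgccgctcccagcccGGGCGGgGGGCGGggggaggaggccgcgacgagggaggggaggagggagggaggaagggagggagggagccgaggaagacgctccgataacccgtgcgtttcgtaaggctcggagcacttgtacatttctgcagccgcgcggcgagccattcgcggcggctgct
RET: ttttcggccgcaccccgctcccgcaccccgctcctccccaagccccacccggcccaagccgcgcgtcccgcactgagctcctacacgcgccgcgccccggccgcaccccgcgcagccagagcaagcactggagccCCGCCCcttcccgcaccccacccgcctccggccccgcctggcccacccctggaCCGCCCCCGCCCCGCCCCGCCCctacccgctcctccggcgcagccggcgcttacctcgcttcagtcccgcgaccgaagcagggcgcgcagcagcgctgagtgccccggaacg

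Both windows are rich in G and C, 72% in NTRK3 and 78.7% in RET against a median of 58.7% over 35116 promoter windows of the same length. NTRK3 holds 2 GC boxes and RET 5, and 45% of all windows hold at least 1. The EGR1 motif GCGGGGGCG, which can overlap a GC box, was found 1 time in the RET window and is held by 5.07% of all windows on either strand. The nuclear receptor half-site AGGTCA (13.8% of all windows), the AP-1 site TGACTCA (4.95%) and the antioxidant response core TGACNNNGC (13.3%) were not found in either of these windows. In all, 6 of the 8 genes had 17 windows, and NGFR and GFRA2 had none in the table. The antioxidant response core occurred in 1 of 4 NTRK2 windows, 2 of 5 BDNF windows and, with 2 matches, in the second RET window. These letter matches are a description of the windows.

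The 3 co-receptors did not move together. GFRA1, which presents GDNF to RET, was at 7.42, 5.84 and 3.80 CPM in co-treatment controls and at 3.59, 3.45 and 3.40 CPM in co-treated cells. These groups were just separate, and without TMM factors they overlapped (3.49 in control replicate 3 and 3.66 in treated replicate 1). In pre-treatment it was at 4.79, 4.76 and 2.18 CPM in controls and at 5.18, 5.74 and 3.03 CPM in treated cells. The log2FC was -0.71 ± 0.24 (FDR = 0.385) in co-treatment, 0.29 ± 0.37 (FDR = 0.784) in pre-treatment over 6 libraries and 0.03 ± 0.28 (FDR = 0.942) over 5.

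GFRA2, the neurturin co-receptor, was at 11.3, 9.64 and 8.92 CPM in co-treatment controls and at 12.5, 8.37 and 8.93 CPM in co-treated cells, with full overlap. In pre-treatment it was at 6.77, 5.79 and 6.66 CPM in controls and at 8.89, 8.01 and 9.11 CPM in treated cells. The pre-treatment groups were tight and did not overlap, but the log2FC of 0.46 ± 0.20 was under the threshold (FDR = 0.433), as was the value of 0.54 ± 0.18 over 5 libraries (FDR = 0.0595). The co-treatment log2FC was -0.01 ± 0.19 (FDR = 0.997) and changed sign with the scaling of the libraries (0.02 with upper-quartile factors, 0.04 with library size only).

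GFRA3, the artemin co-receptor, varied widely between libraries of a group, except in co-treatment controls, where its coefficient of variation of 7.66% was the lowest of the 8 genes. It was at 2.79, 2.96 and 2.54 CPM in co-treatment controls and at 1.85, 1.83 and 0.467 CPM in co-treated cells (log2FC -1.01 ± 0.41, FDR = 0.519). In pre-treatment it was at 0.889, 5.02 and 1.07 CPM in controls and at 0.673, 0.984 and 3.96 CPM in treated cells. In each of these pre-treatment groups 1 library stood far above the others, and the log2FC of -0.27 ± 0.83 (FDR = 0.915) turned to 0.95 when control replicate 2 was left out, and to 0.15 and 0.06 when treated replicate 1 or 2 was. Over the 5 libraries the log2FC was -0.58 ± 0.82 (FDR = 0.632).

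In shares, GFRA2 made up 47.2% ± 1.93 of the summed level of the 3 co-receptors per length in co-treatment controls and 63.5% ± 9.92 in co-treated cells, and GFRA3 went from 38.4% ± 3.19 to 24.2% ± 11.8. Both shares were without overlap between the groups (exact permutation p = 0.1 for each). They are parts of 1 sum, so these are not 2 separate results. Mean GFRA2 itself was 9.94 CPM in both groups, while GFRA1 and GFRA3 were lower without a call. The GFRA1 share was 14.4% ± 3.01 and 12.4% ± 2.71, with overlap. In pre-treatment all 3 shares overlapped, with GFRA2 at 47.6% ± 19.5 in controls and 54.4% ± 12.3 in treated cells.

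**Figure D3:**
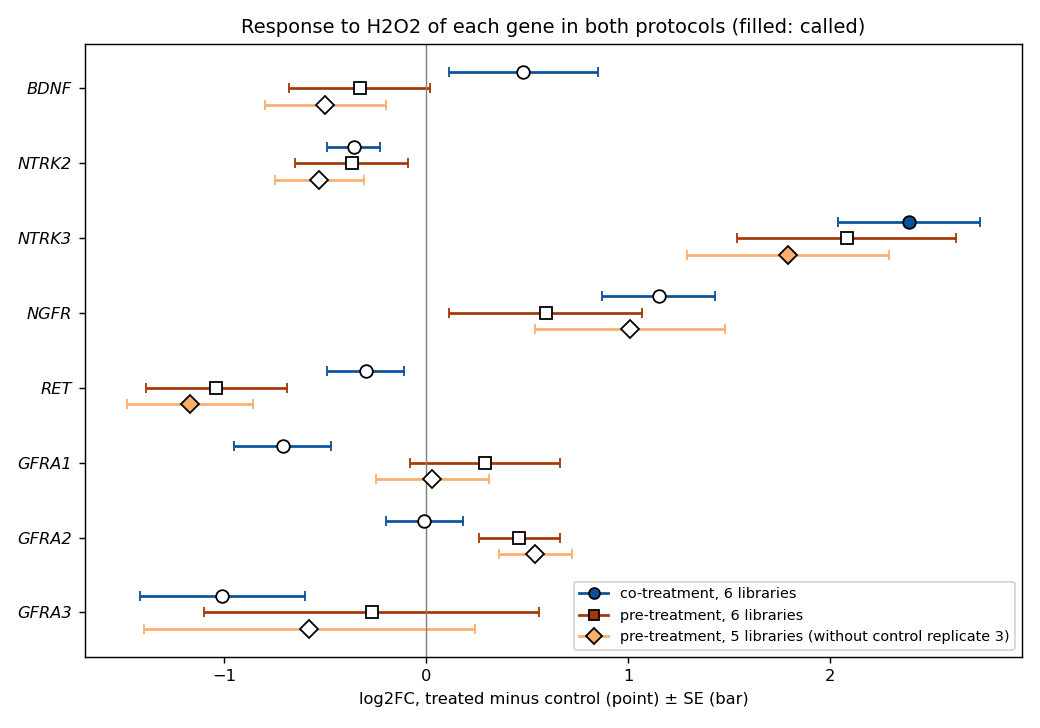
The log2FC of each gene (point) with its SE (bar) in co-treatment, in pre-treatment over 6 libraries and in pre-treatment over 5 libraries, where filled points were called. NTRK3 lies between 1.79 and 2.39 in the 3 fits, RET near -0.30 in co-treatment and below -1 in pre-treatment.

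Whether the 2 protocols differed in the response of a gene was tested as an interaction over the 12 libraries. None of the 8 genes differed (edgeR quasi-likelihood, FDR below 0.05), where 0.0287% of 24407 genes did, and 0 of the 8 had an unadjusted p under 0.05. The largest differences, pre-treatment minus co-treatment, were those of GFRA1 (0.97 ± 0.47, FDR = 0.565), BDNF (-0.83 ± 0.52, FDR = 0.63) and RET (-0.78 ± 0.42, FDR = 0.594). Over the 11 libraries without pre-treatment control replicate 3, none of the 8 differed either, where 8.02% of genes did, and RET had the smallest p of the 8 (difference -0.93 ± 0.39, FDR = 0.137). For NTRK3 the difference was -0.34 ± 0.64, with a 95% interval from -1.60 to 0.91, which spans a smaller and a larger response in pre-treatment. The protocol and the experiment are the same factor here and cannot be told apart.

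A comparison of treated with control cells over both protocols, with the experiment as a term, was added after the data had been seen. NTRK3 was the only 1 of the 8 genes called, with a log2FC of 2.21 ± 0.32 (4.62-fold, FDR = 0.0183), where 0.135% of 24407 genes were called. Without pre-treatment control replicate 3 the log2FC was 2.08 ± 0.32 (FDR = 0.0139) and 0.729% of genes were called. The call was lost without co-treatment control replicate 2 (FDR = 0.0508) and without co-treated replicate 3 (FDR = 0.0614). NTRK3 was also 1 of 415 genes (1.89% of 21930) whose groups were separate and shifted the same way in both protocols. The other genes had log2FC values of 0.86 ± 0.31 for NGFR (FDR = 0.298), -0.69 ± 0.23 for RET (FDR = 0.269), -0.65 ± 0.52 for GFRA3 (FDR = 0.661), -0.39 ± 0.16 for NTRK2 (FDR = 0.351), -0.22 ± 0.27 for GFRA1 (FDR = 0.786), 0.22 ± 0.14 for GFRA2 (FDR = 0.571) and 0.04 ± 0.28 for BDNF (FDR = 0.97).

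The signalling genes around these receptors were followed with lists of 66 further genes, of which 57 were tested. In co-treatment the median log2FC was -0.07, and called genes are given with their lists. In pre-treatment over 6 libraries none was called by the edgeR quasi-likelihood test, 15 had an unadjusted p under 0.05 and the median was -0.27, and over 5 libraries 1 was called higher and 7 lower. Over all tested genes, 11.2% had an unadjusted p under 0.05 over 6 libraries, and 2.98% were called higher and 8.23% lower over 5. Among the co-receptors other than the 8 genes, GFRA4 and GFRAL did not pass the filter.

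Among 6 genes that process pro-neurotrophins, the plasminogen activator PLAT rose in co-treatment from 26.1, 22.5 and 23.8 CPM to 68.4, 70.0 and 79.4 CPM (log2FC 1.59 ± 0.13, FDR = 3.02e-04). In pre-treatment it was at 16.5, 8.41 and 20.1 CPM in controls and at 59.0, 45.7 and 13.4 CPM in treated cells, where treated replicate 3 lay within the control range (log2FC 1.41 ± 0.52, FDR = 0.377 over 6 libraries and 1.73 ± 0.56, FDR = 0.0519 over 5). The co-treatment call of PLAT was lost in one fit over both protocols (FDR = 0.42). PLG, the plasminogen it activates, did not pass the filter, and FURIN, PCSK6 and PCSK7 were not called. Among 21 adaptors and docking proteins, 19 of them tested, DOK4, a docking protein of RET, rose in co-treatment from 179, 193 and 204 CPM to 348, 292 and 374 CPM (log2FC 0.82 ± 0.13, FDR = 0.0145). This call was lost without control replicate 2 (FDR = 0.111), treated replicate 1 (FDR = 0.0624) or treated replicate 3 (FDR = 0.189) and in one fit over both protocols (FDR = 0.673). In pre-treatment the DOK4 log2FC was 0.57 ± 0.34 (FDR = 0.565) over 6 libraries and just past the threshold over 5 (1.02 ± 0.24, FDR = 0.0167), a call that was lost under 8 of 15 alternatives, among them leaving out control replicate 2 (0.67, FDR = 0.087) or treated replicate 3 (0.86). The left-out control, at 214 CPM, lay above treated replicates 1 and 2 (209.6 and 179 CPM). Over the same 5 libraries the Ras activator SOS1 (log2FC -1.09 ± 0.14, FDR = 0.00188) and the insulin receptor substrate IRS2 (log2FC -1.98 ± 0.29, FDR = 0.00328) were called lower. SOS1 fell below the fold threshold without treated replicate 1 (-0.99). In control replicate 3, which is outside that fit, SOS1 was at 60.5 CPM, below all 3 treated libraries (70.7 to 95.8 CPM), and IRS2 at 66.3 CPM lay within the treated range.

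The 15 feedback inhibitors and induced targets of ERK signalling had lower values after pre-treatment. All 15 had a negative log2FC over 6 libraries, 11 had treated libraries entirely below the controls and 10 had an unadjusted p under 0.05, but none was called by the edgeR quasi-likelihood test (FDR = 0.317 at the lowest). Over all tested genes 8.47% were lower without overlap and 11.2% had an unadjusted p under 0.05. The median was -0.65, against -0.00662 over all tested genes. The lowest values were those of the immediate early gene EGR1 (log2FC -2.26 ± 0.53, FDR = 0.32) and the neurotrophin-induced secreted peptide VGF (log2FC -2.18 ± 0.46, FDR = 0.317). EGR1 was at 61.2, 68.8 and 16.7 CPM in controls and at 10.8, 13.8 and 5.21 CPM in treated cells. VGF was at 619, 1284 and 394 CPM in controls and at 145, 239 and 112 CPM in treated cells. Control replicate 3 was the lowest control for both, yet above each treated library.

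Over the 5 libraries EGR1, VGF, SPRY4 (log2FC -1.51 ± 0.17, FDR = 0.00143) and SPRED2 (log2FC -1.69 ± 0.15, FDR = 9.24e-04) were called lower. SPRY4 was at 122.5, 127.3 and 57.9 CPM in controls and at 41.7, 51.4 and 32.6 CPM in treated cells. SPRED2 was at 109, 138 and 46.8 CPM and at 30.4, 38.7 and 40.5 CPM. The left-out control replicate 3 thus lay closer to the treated cells than to the other controls. The part of the gap of control replicates 1 and 2 in reads outside genes and on small RNAs was not tested, here or over 11 libraries. In co-treatment the median of the 15 was -0.15, with 5 positive and 9 negative log2FC values. Without overlap, 1 of them was higher and 3 were lower, where 6.58% and 7.37% of all tested genes were. The 2 called were Sprouty genes, both lower, where 0.598% of all tested genes were called. SPRY1 was at 76.4, 72.3 and 63.8 CPM in controls and at 39.7, 29.0 and 29.8 CPM in treated cells (log2FC -1.11 ± 0.15, FDR = 0.00505). SPRY2 was at 20.4, 18.2 and 18.4 CPM in controls and at 11.4, 10.6 and 11.8 CPM in treated cells (log2FC -0.75 ± 0.14, FDR = 0.0322). The SPRY2 call was lost when any library but control replicate 1 was left out (FDR from 0.0514 to 0.225), with library size only (FDR = 0.0952) and in one fit over both protocols (FDR = 0.838), and the SPRY1 call without treated replicate 3 (FDR = 0.0812) and in one fit (FDR = 0.141). SPRY1 was also called in the comparison over both protocols (log2FC -0.87 ± 0.15, FDR = 0.0378). The interaction was not past the threshold over 12 libraries for any of the 15, and over 11 libraries EGR1, SPRY4 and SPRED2 passed it (SPRED2 difference -1.67 ± 0.29, FDR = 0.00882).

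**Figure D4:**
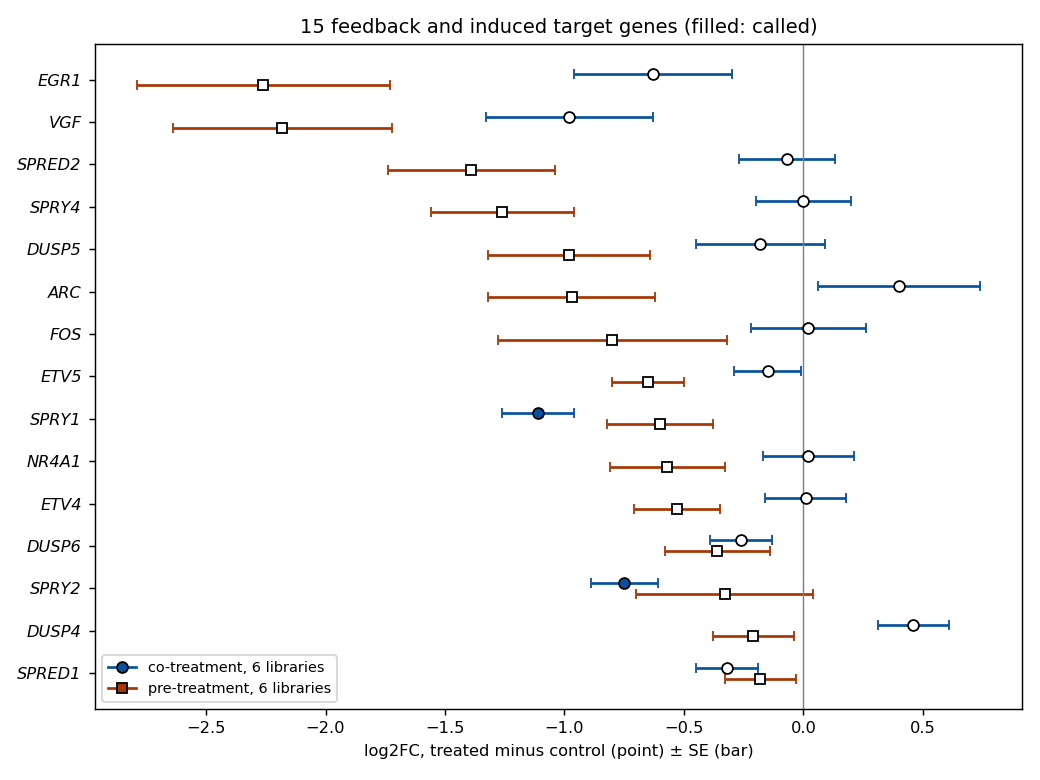
The log2FC (point) with its SE (bar) of 15 feedback and induced target genes in co-treatment and in pre-treatment over 6 libraries, where filled points were called. All 15 pre-treatment points lie below 0, and SPRY1 and SPRY2 are the called genes in co-treatment.

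Across the 12 libraries, the levels of the 8 genes were compared in all 28 pairs on the log2 CPM scale. Among libraries of the same group, NTRK2, RET and GFRA1 deviated together, with a correlation of deviations from the group means of 0.92 for NTRK2 and RET, 0.94 for NTRK2 and GFRA1 and 0.88 for RET and GFRA1. In pre-treatment, control replicate 3 and treated replicate 3 were the lowest of their groups for each of these genes. No such correlation over all gene pairs is given for comparison, so a difference between whole libraries cannot be told apart from one in these genes. Over all 12 libraries, NTRK2 and RET had r = 0.76 (permutation p = 0.00323, adjusted p = 0.0587 over 28 pairs) and a Spearman coefficient of 0.60 (permutation p = 0.0429, adjusted p = 0.24), with r = 0.81 within co-treatment and 0.90 within pre-treatment, and r = 0.60 without the 2 libraries farthest from the NTRK2 median. NTRK2 and GFRA1 had r = 0.61 (permutation p = 0.0358, adjusted p = 0.251) and a Spearman coefficient of 0.69 (permutation p = 0.0168, adjusted p = 0.157), with r = 0.96 within co-treatment and 0.65 within pre-treatment.

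NGFR and GFRA3 were negatively correlated. Over the 12 libraries they had r = -0.76 (permutation p = 0.00419, adjusted p = 0.0587) and a Spearman coefficient of -0.83 (permutation p = 0.00155, adjusted p = 0.0434), with r = -0.66 within co-treatment, -0.92 within pre-treatment, -0.77 for deviations from the group means and -0.81 without the 2 libraries farthest from the NGFR median. Not every group showed this, since among co-treatment controls replicate 3 had both the lowest NGFR and the lowest GFRA3. By Pearson's r no pair passed an adjusted p of 0.05. The 12 libraries fall into 4 groups, and libraries of a group share their treatment. The permutations shuffled all 12 libraries freely, so the p-values of all pairs do not account for the groups.

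**Figure D5:**
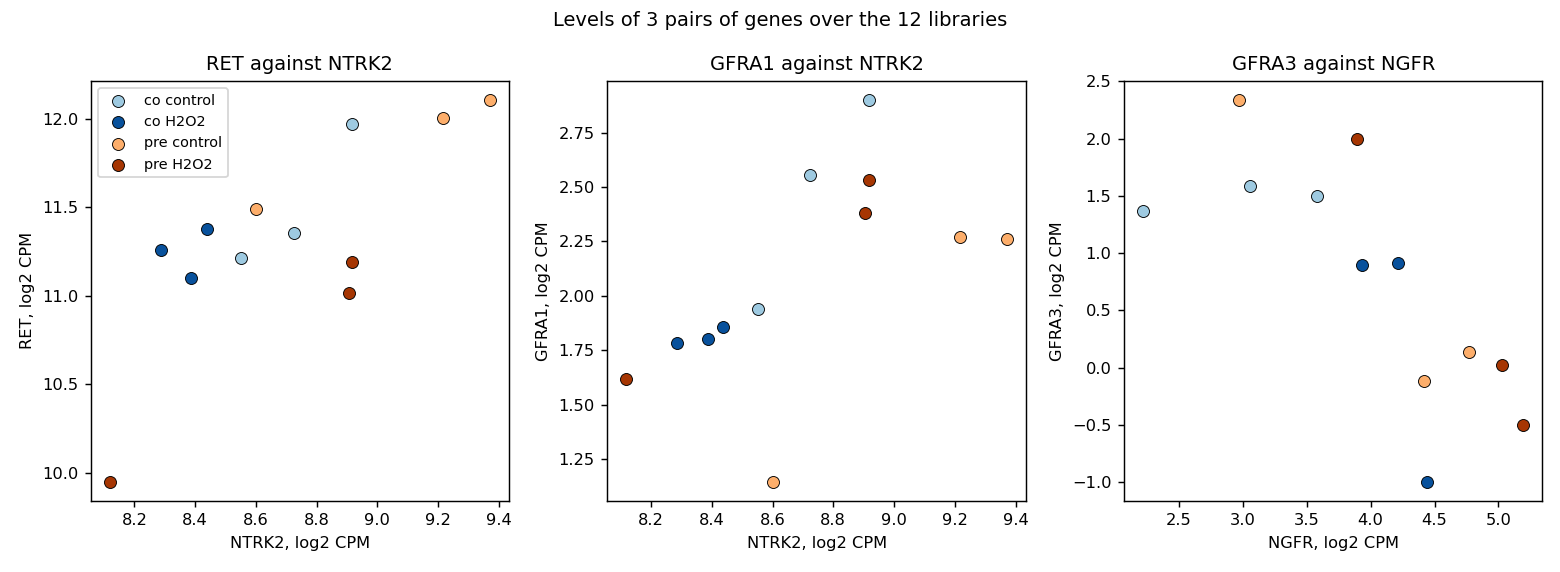
Levels (log2 CPM on both axes) of RET against NTRK2, GFRA1 against NTRK2 and GFRA3 against NGFR, 1 point per library, coloured by group. RET and GFRA1 lie higher where NTRK2 is higher, and GFRA3 tends to lie lower where NGFR is higher.

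Among genes with a mean log2 CPM above 0, the pattern most like that of RET over the 12 libraries was that of the retinoic acid hydroxylase CYP26B1 (r = 0.977), followed by the sodium-calcium exchanger SLC8A3 (r = 0.970). For NTRK2 they were VCAN (0.924) and ABCA1 (0.923), for NTRK3 LINC01021 (0.927) and the somatostatin receptor SSTR2 (0.915), and for NGFR IGDCC3 (0.951) and NT5DC1 (0.943). GFRA3 was most like the glutamate transporter SLC1A2 (0.941) and DCLK3 (0.899), GFRA2 SLC11A1 (0.891) and RP5-857K21.11 (0.877), GFRA1 FAM85A (0.881) and CLDN4 (0.850), and BDNF TNFSF13B (0.873) and ZNF484 (0.856). These are the highest of 15616 correlations for each gene (15617 for NTRK3) and are given as a description.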

How the data were processed

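RNA-seq read counts per gene of 12 SH-SY5Y libraries were used as deposited. Per the submitters' processing notes and the study's methods, the authors used FastQC 0.11.8, cutadapt 2.10, HISAT2 2.1.0 on hg19 and HTSeq 0.7.2, and the deposited counts were not normalized. The strand setting of the counting is not given in the sources used here, and the kit was stranded. The authors' comparison tables (fold changes and p-values) were not used. Entries that name no gene (40.0% to 59.9% of all entries of a library) were left out.

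CPM and RPKM were computed from the gene counts with library totals over filtered genes scaled by TMM factors; plain totals were tried for the overlap of groups. Genes were kept above the CPM of 5 counts in the smallest library (0.181 in co-treatment, 0.12 in pre-treatment) in 3 libraries (2 where a group had 2). Treated and control libraries were compared within each protocol with the quasi-likelihood test of edgeR 4.0.16 (TMM factors, R 4.3.3) and Benjamini-Hochberg adjustment over all tested genes. With the study's thresholds, a call needed FDR below 0.05 with a log2FC beyond 0.6 in size in co-treatment and beyond 1 in pre-treatment, or FDR alone for the interaction and the comparison over both protocols. Ratios and shares within libraries, chosen after the data had been seen, were compared by exact permutation. The scripts were tested on simulated data. Alternatives were the exact test, DESeq2 1.42.0, limma-voom (limma 3.58.1), other scalings and filters, a replicate block and leaving out each library. Depth ranged from 27576276 to 98287391 gene counts, and intervals cover these libraries only.

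Named were the 8 genes, pathway genes called in either protocol (some items are not reported here) and, for each of the 8, the 2 genes with the most similar pattern. NRTN, PSPN, ARTN, the markers and genes not tested were named as members of their lists. The genes and lists were chosen with earlier results of these data known. Of 55765 symbols, 33177 (59.5%) matched 1 annotated gene, which gave the lengths and positions. Promoters came from RefSeq tables.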

Additional observations from a re-analysis of the deposited data

How the results depend on the processing

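The replicate numbers did not pair the libraries (correlations of same-numbered deviations between -0.273 and 0.026), so the fit with a replicate block is given here. It called 2 of the 8 genes in co-treatment (NTRK3, and NGFR with FDR = 0.0273), 0 genes of all in pre-treatment and 0 in the interaction. Over the 5 pre-treatment libraries it gave RET -0.88, below the fold threshold, GDF15 0.16, and GFRA3 -1.38 (FDR = 0.0121, past the threshold).

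Of all genes, 132 were called in co-treatment, 307 by the exact test, 308 by DESeq2, 80 with library size only, 443 with no filter, 3 in one fit over both protocols, and 18 to 218 with 1 library left out. Of the 8 genes, 1 was called, 2 by the exact test, DESeq2 and no filter, 0 in one fit, and 0 to 2 with 1 library left out. In pre-treatment the 6 genes called became 231 (exact test), 501 (DESeq2), 0 (limma-voom and upper-quartile factors), 1 (library size only), 300 (no filter), 61 (one fit) and 0 to 2952 with 1 library left out, the highest without control replicate 3. None of the 8 genes was called, 1 by the exact test and DESeq2, and 0 to 2 with 1 library left out. In the interaction the 7 genes became 106 (DESeq2), 2 (limma-voom), 4 (library size only), 272 (no filter) and 0 to 2058 with 1 library left out. Over 5 libraries the 2952 genes became 1064 to 3540 with 1 more library left out, and the 2 of the 8 genes became 1 with limma-voom and library size only and 0 to 2 with 1 left out. Over both protocols the 33 genes became 452 (DESeq2), 21 (library size only) and 7 to 187 with 1 library left out, and the 1 of the 8 genes 0 to 1.

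Changes of sign were limited to values that were not called in the fits reported. In co-treatment SPRY4 (0.00) gave 0.00 with the exact test, RLE factors and filterByExpr, 0.01 with DESeq2, 0.03 with upper-quartile factors, 0.04 with limma-voom and library size only, and 0.05 with the replicate block, and GFRA2 gave 0.02 and 0.04 with upper-quartile factors and library size only. With 1 library left out the ranges were -0.21 to 0.28 for SPRY4, -0.20 to 0.10 for GFRA2, -0.14 to 0.19 for SOS1, -0.78 to 0.05 for ARHGDIA and -0.27 to 0.24 for SPRED2. GFRA3 ranged from -1.45 to 0.95 in pre-treatment and from -1.79 to 1.14 over 5 libraries, where GFRA1 gave -0.02 (limma-voom), -0.08 (upper-quartile factors), -0.19 (library size only) and -0.14 to 0.23 with 1 left out, and GDF15 -0.28 to 0.23. In the interaction the ranges were -0.22 to 0.19 for NTRK2, -0.66 to 0.33 for NTRK3, -0.46 to 1.97 for GFRA3, -0.61 to 0.22 for PLAT, -0.54 to 0.14 for DOK4 and -0.07 to 0.76 for SPRY2. BDNF over both protocols ranged from -0.13 to 0.20. The cause of these changes was not tested.

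NTRK3 was higher under all 17 alternatives in co-treatment (log2FC 2.26 to 2.55, FDR from 1.04e-06 to 0.168) and in pre-treatment (1.76 to 2.71, FDR from 0.015 to 0.954). RET in pre-treatment ranged from -1.25 to -0.76 (FDR from 0.0254 to 0.954). NTRK3, BDNF and GFRA3 had the fewest reads, which limits their values. GFRA3 also varied widely between libraries, with a coefficient of variation of 100% in pre-treatment controls and 96.9% in pre-treated cells.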
